A study of Mus musculus with 6 samples.

Results

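Long non-coding RNAs (lncRNAs) are transcripts without a long open reading frame. This report is about the lncRNA genes that were expressed in cultured mouse vascular smooth muscle cells. Members were the genes annotated as lincRNA, antisense or bidirectional promoter lncRNA with a mean of at least 2 FPKM over all 6 libraries. FPKM counts the sequenced fragments of a gene, corrected for its length and for how many fragments the library holds. By this rule 146 of 54532 genes were members, and 8550 genes carried 1 of the 3 biotypes at any level. The members comprised 80 genes annotated as lincRNA, some of which overlap a coding gene, and 55 annotated as antisense, a biotype named for a gene on the other strand. Gm14167, annotated as antisense, overlaps the span of no other gene. A further 11 were annotated as sharing a promoter region with a coding gene (bidirectional promoter lncRNA). Members were thus chosen by their mean FPKM over both groups, and their levels are given as a description.

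All libraries came from cells that had received an adenoviral vector. In 3 libraries, labelled Ad-Con, the vector carried a control plasmid, and in 3 libraries, labelled Ad-PDK4, a plasmid made to overexpress PDK4. This pyruvate dehydrogenase kinase of the mitochondrion switches off the enzyme complex that feeds pyruvate into the citric acid cycle. The control cells are labelled WT, and the labels give no species for the PDK4 sequence. The study describes cells isolated from mouse aorta and treated with angiotensin II, a peptide hormone that constricts vessels, in both groups, and the labels do not mention that treatment or the age of the animals. The study calls the libraries of a group biological replicates, and the labels do not say whether they came from separate animals or cultures, so p-values measure the spread between these libraries. The comparison asks which lncRNAs differed between cells with the PDK4 vector and cells with the control vector.

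Fragments assigned to genes numbered between 17588942 and 21861872 per library, of which members held between 52151 and 70815. Endogenous and vector-borne Pdk4 cannot be told apart in these values, and Pdk4 went against the label: Ad-Con libraries measured 9.5, 10.4 and 10.1 FPKM, above the 7.67, 7.4 and 7.38 FPKM of the Ad-PDK4 libraries (log2 fold change -0.42 ± 0.061 (SE), limma adjusted p = 0.00114). Ad-PDK4 and Ad-Con below are therefore names of labels, and higher or lower means in the libraries that carry the label Ad-PDK4. Smooth muscle markers were partly absent: Acta2 measured 78.0 ± 0.950 and 36.2 ± 2.4 FPKM (SD, n = 3 per group), Tagln 0.341 ± 0.195 and 0.292 ± 0.165 FPKM, and Myh11 0.0141 ± 0.00108 and 0.0456 ± 0.0308 FPKM. The summed level of 11 smooth muscle markers lay between 172 and 173 FPKM in Ad-Con and between 135 and 145 FPKM in Ad-PDK4. Of the 5 tested, Acta2 and Tpm2 were lower, Cald1 was higher (56.0 ± 0.646 and 71.9 ± 2.82 FPKM, limma adjusted p = 6.60e-04) and Smtn and Lmod1 did not pass the test. Among those too low to be tested, Mylk (0.756 ± 0.138 and 0.123 ± 0.0239 FPKM), Cnn1 and Des were lower in Ad-PDK4 without overlap. For Tagln, Myh11 and Myocd the groups overlapped. The 6 fibroblast markers summed to between 1260 and 1355 FPKM and to between 676 and 749 FPKM. Of these, Col1a1 (1056 ± 42.4 and 435 ± 49.5 FPKM), Col3a1 and Lum were lower, Dcn was higher (log2 fold change 0.83, limma adjusted p = 4.04e-04), and Pdgfra and Fbln1 did not pass the test. The summed level of 10 macrophage markers was between 13.3 and 16.5 FPKM in Ad-Con and between 3.84 and 5.83 FPKM in Ad-PDK4, with 5 of the 10, Ptprc among them, at 0 in all libraries. Nearly all of that sum was Cd68 (14.2 ± 1.78 and 4.24 ± 0.991 FPKM), whereas Csf1r was higher in Ad-PDK4 without overlap (0.258 ± 0.143 and 0.640 ± 0.0804 FPKM) and too low to be tested. The 7 endothelial markers summed to between 0.617 and 0.798 FPKM and between 0.885 and 1.18 FPKM. In bulk RNA, fewer cells of a type and less RNA per cell cannot be told apart. A list of 10 interferon-response coding genes, Irf7, Isg15 and Ccl5 among them, was drawn up with earlier results of these data known. All 10 were higher in Ad-PDK4 on the adjusted p, beside 21.8% of all genes tested, and are given as a description. Their summed level lay between 124 and 168 FPKM in Ad-Con and between 2631 and 2826 FPKM in Ad-PDK4. What part these shifts had in the lncRNA results was not tested.

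lncRNAs act in several ways. Some build nuclear bodies or act on the chromatin of nearby genes, others act on proteins or microRNAs in the cytoplasm, and for many the act of transcription or the small RNAs cut from their introns is the known product. Antisense and bidirectional lncRNAs are often transcribed from the same stretch of open chromatin as a coding gene. For most members with names of the form Gm or Rik no role is given here.

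The 10 members with the highest mean level held between 38.5% and 46.1% of the members' summed FPKM in each library. Malat1, a nuclear RNA of the speckles that store splicing factors, led with 77.0, 69.1 and 59.1 FPKM in Ad-Con and 70.9, 64.3 and 69.2 FPKM in Ad-PDK4. It was followed by Epb41l4aos, a snoRNA host gene, at 52.3, 65.3 and 58.9 and 79.4, 71.6 and 77.1 FPKM. The groups overlapped for Malat1 and did not overlap for Epb41l4aos. Gm10076 varied most among these genes, with 46.7, 74.0 and 46.4 FPKM in Ad-Con and 38.8, 99.8 and 64.0 FPKM in Ad-PDK4, and 69.9% of its 50-base stretches also occur in 4 other genes, Rpl41 among them. Next came Gm26917, described below, 2900097C17Rik (listed as Norad in RefSeq), 1810058I24Rik, Gm12473, Snhg6, Snhg18 and Gm17201. Of these, 1810058I24Rik was lower in every Ad-PDK4 library, with 45.4, 42.6 and 44.9 FPKM in Ad-Con and 36.2, 36.2 and 37.8 FPKM in Ad-PDK4 (log2 fold change -0.27 ± 0.049 (SE), limma adjusted p = 0.00318). Most members were far lower: 100 of the 146 had a mean between 2 and 5 FPKM, 19 reached 10 FPKM, and 83 had fewer than 100 fragments in some library. Members held between 2 and 10945 fragments per library, and the median standard error of their log2 fold changes was 0.144, against 0.0901 over all genes tested. Kank4os, Gm37494 and Gm14167, at 2.04, 2.06 and 2.08 FPKM, lay just inside the limit, and Gm20735, Gm47469 and Gm16174, at 1.98, 1.95 and 1.94 FPKM, just outside it. Members held 0.330% ± 0.016 (SD, n = 3) of the summed FPKM in Ad-Con and 0.357% ± 0.00865 in Ad-PDK4, and 0.303% ± 0.0127 and 0.316% ± 0.0075 of the fragments, given as a description. The rise of Gm26917 from 34.9 ± 1.72 to 81.3 ± 14.6 FPKM is part of these sums.

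A gene was called when its limma adjusted p was below 0.05 and it differed at least 2-fold. Among the 146 members, 5 were called higher and 5 lower in Ad-PDK4. Over all 13423 genes tested, 3.95% were called higher and 2.68% lower, so that the members' share, 6.85%, stood beside 6.63% for all genes. On the adjusted p alone, 23 members were higher and 28 lower, which is 34.9% of members against 42.7% of all genes tested, of which 21.8% were higher and 20.8% lower. The groups did not overlap for 61 members, 25 higher and 36 lower, or 41.8% of members, against 54.3% of all genes tested (27.8% higher and 26.5% lower). Among the 10482 genes of any kind at 2 FPKM or more, 5.33% were called, 47.3% passed the adjusted p and 58.4% had groups that did not overlap. The members' median log2 fold change was -0.03, against -0.0031 for all genes, and their median gene length was 1342 bases, against 3896 bases for all genes tested. Of the 10 calls, 9 were among the 100 members under 5 FPKM. Of 10 members with a mean under 2 FPKM in Ad-Con 3 were called, of 18 with a mean under 2 FPKM in Ad-PDK4 4 were called, and of the 118 with both means at or above 2 FPKM 3 were called. The 28 members with 1 mean under 2 FPKM passed the level limit through the other group. Among the called members these were AW112010, A530020G20Rik and Gm26532 through Ad-PDK4, and Gm49083, Gm45847, Gm28875 and Gm16845 through Ad-Con. The group in which they were high made them members, so their differences are given as a description. With a pseudocount of 1 in place of 0.1, 3 members were called higher and 2 lower, and without Ad-Con replicate 2, 9 were called higher.

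**Figure D1:**
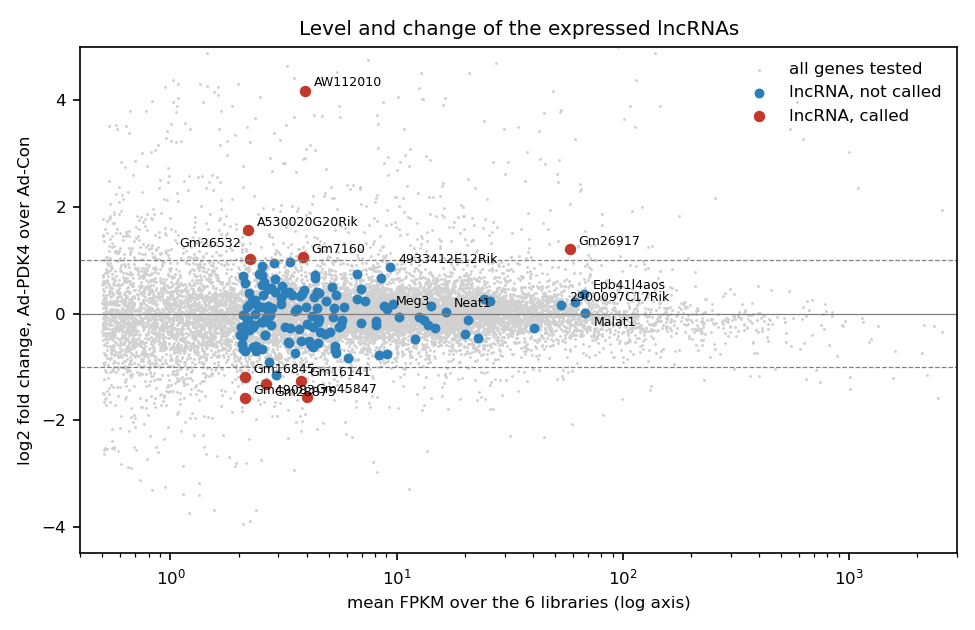
Mean FPKM over the 6 libraries (log axis) against the log2 fold change of Ad-PDK4 over Ad-Con, for all 13423 genes tested (grey), the 136 members not called (blue) and the 10 called (red), with dashed lines at a 2-fold change. 29 genes that are not members lie outside the axes. Most called members lie at the low end of the level range, AW112010 stands above the other members at 4.18, and Gm26917 is the called member with a high level.

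AW112010 showed the largest difference of any member, and with an Ad-Con mean of 0.403 FPKM it passed the level limit only through Ad-PDK4. It is a lincRNA gene of chromosome 19 (ENSMUSG00000075010, GRCm38 chr19:11047617-11050566, minus strand, 3 exons), known from interferon- and lipopolysaccharide-stimulated immune cells, where a short protein has been found to be made from it. It measured 0.128, 0.222 and 0.860 FPKM in Ad-Con replicates 1 to 3, which is 2, 3 and 12 fragments, and 8.21, 5.94 and 8.29 FPKM in Ad-PDK4, which is 115, 80 and 141 fragments. Every Ad-PDK4 library was several times above the highest Ad-Con library. The log2 fold change was 4.18 ± 0.54 (SE, 95% confidence interval 2.84 to 5.52, limma adjusted p = 0.00191). It was 2.62 with a pseudocount of 1 in place of 0.1 and 4.79 without Ad-Con replicate 3, the Ad-Con library with the most fragments. No other gene's span overlapped it. Among the macrophage markers given above, Cd68 was lower and Csf1r higher in Ad-PDK4, and what part other cell types had in this result was not tested. The window around its annotated start, which RefSeq and the deposited table place at the same base, is shown because this gene had the largest rise. It covers GRCm38.p6 chr19:11050517-11050816 on the minus strand, 250 bases before and 50 after the start, with the bases after the start in capitals.
AW112010: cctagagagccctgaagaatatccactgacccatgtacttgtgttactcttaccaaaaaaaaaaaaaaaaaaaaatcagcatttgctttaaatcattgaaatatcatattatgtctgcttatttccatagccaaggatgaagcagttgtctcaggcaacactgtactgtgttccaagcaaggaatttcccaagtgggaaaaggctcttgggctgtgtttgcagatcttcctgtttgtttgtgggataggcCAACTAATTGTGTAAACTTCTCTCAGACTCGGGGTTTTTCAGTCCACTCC
Motifs were searched as plain letters on both strands of such windows: the interferon-response element core GAAANNGAA, the STAT-binding core TTCNNNGAA, the cyclic-AMP element TGACGTCA and the AP-1 site TGANTCA. None of these letters occurred in the AW112010 window. RefSeq held windows for 78 of the 146 members. At least 1 window held GAAANNGAA for 6 of them (7.69%, against 8.56% of all 32851 windows), TTCNNNGAA for 6 (7.69% against 8.30%), TGACGTCA for 3 (3.85% against 1.79%) and TGANTCA for 8 (10.3% against 7.81%).

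**Figure D2:**
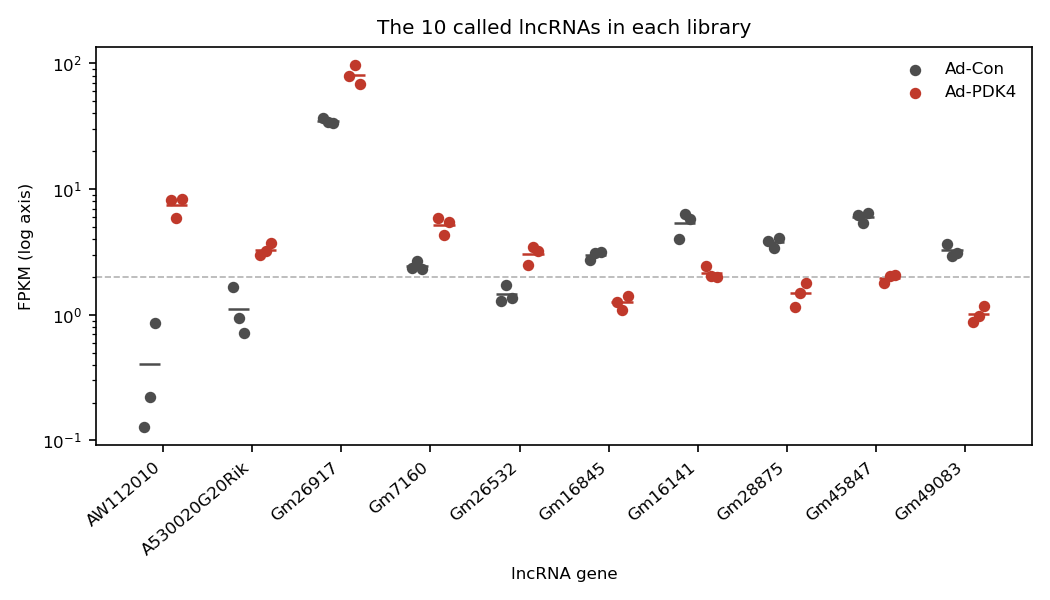
FPKM (log axis) of the 10 called lncRNAs in each of the 3 Ad-Con libraries (grey points) and 3 Ad-PDK4 libraries (red points), with short lines at the group means and a dashed line at 2 FPKM, the limit on the mean over both groups. The groups do not overlap for any of the 10, and the widest gap is that of AW112010, from 0.860 to 5.94 FPKM.

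A530020G20Rik came next among the higher members, and it too passed the level limit only through Ad-PDK4. This antisense gene (ENSMUSG00000097124, chr3:121531619-121536206, plus strand) starts 785 bases from the start of Slc44a3, a choline transporter-like gene on the other strand, and 9.25% of its exonic bases lie in exons of other genes. It measured 1.65, 0.951 and 0.716 FPKM in Ad-Con and 3.0, 3.2 and 3.72 FPKM in Ad-PDK4. The highest Ad-Con library stayed below the lowest Ad-PDK4 library, and the log2 fold change was 1.57 ± 0.27 (SE, limma adjusted p = 0.00279). Slc44a3 measured 1.36, 1.34 and 1.73 FPKM and 1.77, 2.07 and 1.74 FPKM. Its log2 fold change was 0.32 ± 0.14 (SE), which did not pass the adjusted p (0.114 by limma).

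Gm26917 was the one called member above 5 FPKM. It is a single-exon lincRNA of chromosome 17 (ENSMUSG00000097971, chr17:39843013-39846341, plus strand), and its end lies 12 bases from CT010467.1, a gene annotated as ribosomal RNA on the other strand. Gm26917 measured 36.9, 34.1 and 33.7 FPKM in Ad-Con and 78.9, 97.0 and 68.1 FPKM in Ad-PDK4, and all Ad-PDK4 libraries were above all Ad-Con libraries. The log2 fold change was 1.2 ± 0.12 (SE, limma adjusted p = 2.71e-04). CT010467.1 moved in the same direction, with 129, 160.4 and 115 FPKM in Ad-Con and 164, 204 and 201 FPKM in Ad-PDK4 (log2 fold change 0.50 ± 0.14 (SE), limma adjusted p = 0.0270). What part ribosomal RNA had in the Gm26917 values was not tested.

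Gm7160 and its coding neighbour were both higher. Gm7160 (ENSMUSG00000099843, chr1:105979350-105990282, minus strand) starts 124 bases from the start of Zcchc2, a zinc finger gene read in the opposite direction. Gm7160 measured 2.36, 2.69 and 2.3 FPKM in Ad-Con and 5.93, 4.31 and 5.43 FPKM in Ad-PDK4, without overlap (log2 fold change 1.05 ± 0.13 (SE), limma adjusted p = 4.61e-04). Zcchc2 measured 7.29, 6.54 and 7.39 and 12.7, 12.7 and 12.7 FPKM, also without overlap (log2 fold change 0.84 ± 0.065 (SE), limma adjusted p = 4.15e-05). The call of Gm7160 was lost without Ad-PDK4 replicate 1. The stretch between both starts is shown because the genes face away from each other there, with the first 50 transcribed bases of Gm7160 in capitals (chr1:105990233-105990405 of GRCm38.p6, minus strand). It holds none of the motif letters above.
Gm7160: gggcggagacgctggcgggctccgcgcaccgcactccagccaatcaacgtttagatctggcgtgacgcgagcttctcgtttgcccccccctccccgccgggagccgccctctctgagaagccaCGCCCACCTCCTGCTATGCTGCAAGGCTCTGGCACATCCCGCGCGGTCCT

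Gm26532 lies directly behind a microRNA cluster and passed the level limit only through Ad-PDK4. It is a single-exon lincRNA (ENSMUSG00000097296, chr8:84208920-84209609, plus strand) that overlaps, with 0.290% of its bases, the end of Mir24-2, the last gene of the cluster Mir23a, Mir27a and Mir24-2, on the same strand. In Ad-Con it measured 1.28, 1.73 and 1.36 FPKM and in Ad-PDK4 2.47, 3.48 and 3.22 FPKM, which is 18, 21 and 17 and 31, 42 and 49 fragments. The groups did not overlap, and the log2 fold change was 1.01 ± 0.17 (SE, limma adjusted p = 0.00191), close to the 2-fold limit. This call ended in 4 of the 6 fits that left out 1 library: without Ad-Con replicate 1 or 3, or without Ad-PDK4 replicate 2 or 3. Mature microRNAs are too short for these libraries and were not measured. Their sequences (RefSeq, GRCm38.p6, plus strand, chr8:84208563-84208583, chr8:84208727-84208747 and chr8:84208875-84208896) are shown because Gm26532 follows their precursors, with the seed that pairs with targets (bases 2 to 8) in capitals.
mmu-miR-23a-3p: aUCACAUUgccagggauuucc
mmu-miR-27a-3p: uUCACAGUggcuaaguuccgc
mmu-miR-24-3p: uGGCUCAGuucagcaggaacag
Each of these microRNAs has a seed of its own. Zswim4, on the other strand 1069 bases away, measured 10.2 ± 0.750 FPKM in Ad-Con and 12.3 ± 0.469 FPKM in Ad-PDK4 (SD, n = 3 each, log2 fold change 0.27, limma adjusted p = 0.0153).

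The 5 members called lower carry provisional names, and all but Gm16141 passed the level limit only through Ad-Con. Gm49083 (ENSMUSG00000115354, chr14:43804696-43812383) fell the furthest, from 3.69, 2.96 and 3.1 FPKM in Ad-Con to 0.876, 0.982 and 1.18 FPKM in Ad-PDK4 (log2 fold change -1.59 ± 0.15 (SE), limma adjusted p = 9.79e-05). Its groups lay far apart, but 57.6% of its 50-base stretches also occur in 7 genes elsewhere, so fragments may have been split between copies and its value is uncertain. Gm45847 (ENSMUSG00000109814, chr7:123031415-123068305) measured 6.24, 5.39 and 6.45 FPKM and 1.79, 2.05 and 2.09 FPKM (log2 fold change -1.56 ± 0.10 (SE), limma adjusted p = 1.86e-05). It overlaps Gm45846, another lincRNA on the same strand that was at 0 in all Ad-Con libraries and at 0.123, 0.256 and 0 FPKM in Ad-PDK4. The coding gene Rbbp6, 28858 bases away on the same strand, did not pass the test (log2 fold change 0.08, limma adjusted p = 0.390).

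Gm28875 (ENSMUSG00000100975, chr12:104925501-104926689, minus strand) lies 3244 bases behind the end of Syne3, a nuclear envelope gene on the same strand, and both fell. Gm28875 measured 3.88, 3.4 and 4.08 FPKM in Ad-Con and 1.16, 1.49 and 1.79 FPKM in Ad-PDK4 (log2 fold change -1.32 ± 0.16 (SE), limma adjusted p = 4.37e-04). Syne3 went from 3.94, 3.18 and 4.1 FPKM to 2.02, 2.52 and 1.74 FPKM (log2 fold change -0.81 ± 0.15 (SE), limma adjusted p = 0.00399). The groups did not overlap for either gene.

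Gm16141 and Gm16845 differed from the coding genes they overlap. Gm16141 (ENSMUSG00000087507, chr11:19013817-19015154, plus strand) lies wholly inside the span of Meis1, a homeodomain transcription factor gene on the other strand, in none of its exons. It measured 3.98, 6.34 and 5.8 FPKM in Ad-Con and 2.43, 2.03 and 2.01 FPKM in Ad-PDK4 (log2 fold change -1.26 ± 0.17 (SE), limma adjusted p = 9.15e-04), whereas Meis1 measured 8.74, 8.74 and 8.98 and 8.88, 8.07 and 8.35 FPKM with overlapping groups (limma adjusted p = 0.426). Gm16845 (ENSMUSG00000096981, chr9:22071002-22086122, plus strand) spans Ecsit, which encodes an assembly factor of mitochondrial complex I that also acts in Toll-like receptor signalling. Gm16845 fell from 2.73, 3.09 and 3.14 FPKM to 1.27, 1.1 and 1.41 FPKM (log2 fold change -1.19 ± 0.13 (SE), limma adjusted p = 2.23e-04), while Ecsit rose from 5.43, 4.71 and 4.85 FPKM to 6.33, 6.59 and 6.51 FPKM (log2 fold change 0.37 ± 0.075 (SE), limma adjusted p = 0.00534). Of the exonic bases of Gm16845, 47.3% lie in exons of other genes. Whether counting used strand is not stated, so fragments of such overlaps cannot be assigned with certainty.

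Several further members passed the adjusted p with differences under 2-fold, and they were chosen here after their values were seen. 4933412E12Rik, a bidirectional promoter lncRNA, measured 6.42, 6.93 and 6.41 FPKM in Ad-Con and 12.4, 11.0 and 13.0 FPKM in Ad-PDK4 (log2 fold change 0.87 ± 0.078 (SE), limma adjusted p = 9.23e-05). AU020206, a lincRNA, measured 6.56, 6.93 and 6.09 FPKM and 10.3, 10.1 and 10.9 FPKM (log2 fold change 0.67 ± 0.069 (SE), limma adjusted p = 1.82e-04). Libraries of a group agreed closely for both genes and the groups stood apart. G930009F23Rik and Gm9869 rose by slightly less than 2-fold, with log2 fold changes of 0.95 ± 0.13 and 0.96 ± 0.23 (SE). C330013E15Rik, head to head with Dazap2, fell from 3.68, 4.07 and 3.01 FPKM to 2.37, 1.75 and 1.54 FPKM (log2 fold change -0.90 ± 0.17 (SE), limma adjusted p = 0.00438). Dazap2 itself did not pass the test (log2 fold change -0.10, limma adjusted p = 0.149). 2610306M01Rik, which starts 77 bases from the start of Aak1, also fell (log2 fold change -0.61, limma adjusted p = 0.00676), and Aak1 did not pass the test (log2 fold change 0.13, limma adjusted p = 0.214). Gm38079 showed how far single libraries can spread: it measured 4.79, 1.85 and 5.73 FPKM in Ad-Con and 1.07, 1.48 and 2.65 FPKM in Ad-PDK4, so its log2 fold change of -1.15 ± 0.52 (SE) exceeded 2-fold without passing the test (limma adjusted p = 0.131).

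The members described here for their well-known roles differed little. Some well-known lncRNAs that the biotype rule left out did differ, Zfas1, Firre and Rian among them, and are given at the end. Malat1 had a log2 fold change of 0.00 ± 0.094 (SE, 95% confidence interval -0.22 to 0.22), and Neat1, the scaffold of paraspeckles, measured 16.6, 17.4 and 14.8 FPKM in Ad-Con and 15.5, 15.4 and 19.3 FPKM in Ad-PDK4 (0.04 ± 0.10 (SE) on the log2 scale, limma adjusted p = 0.802). The direction of both turned under quantile normalization. Tug1, transcribed head to head with Morc2a, measured 14.2, 12.7 and 14.5 and 12.2, 12.6 and 13.1 FPKM (log2 fold change -0.12 ± 0.066 (SE), limma adjusted p = 0.172). Pvt1, the neighbour of Myc, measured 2.91, 2.47 and 2.73 and 2.58, 2.81 and 3.38 FPKM, with overlapping groups. 2900097C17Rik (Norad), which binds Pumilio proteins in the cytoplasm, was slightly higher, from 50.6, 48.4 and 51.1 FPKM to 56.9, 53.2 and 57.9 FPKM (log2 fold change 0.16 ± 0.052 (SE), limma adjusted p = 0.0371). It passed in 8 of 17 alternative settings, with a log2 fold change as low as 0.088 and an adjusted p of up to 0.272 under quantile normalization, and 39.5% of the 50-base stretches of the gene also occur in Gm7292. 1700020I14Rik, listed in RefSeq as Oip5os1 or Cyrano and known for binding miR-7, did not pass the test (-0.07 on the log2 scale, limma adjusted p = 0.597). Bvht (Braveheart), named for its part in heart lineage commitment, measured 9.49, 11.2 and 11.0 and 9.2, 10.1 and 10.8 FPKM, also with overlapping groups. Among Malat1, Neat1, Tug1, Pvt1, 1700020I14Rik and Bvht, the 95% confidence interval farthest from 0 was that of Pvt1, -0.18 to 0.38 on the log2 scale. For all genes tested the shares past the adjusted p were 21.8% higher and 20.8% lower. Of the list of growth, p53 and cytoplasmic regulators 8 genes of any biotype were tested, with 2 higher and 0 lower, and of the list of nuclear structure and X inactivation lncRNAs 4, with 0 higher and 2 lower. Of the 12 genes found of the immune and inflammatory list 5 were tested, with 3 higher and 0 lower, and AW112010 and Neat1 were its members. Of the higher genes, AW112010 and Ptgs2os2 had Ad-Con means of 0.403 and 0.408 FPKM. Both passed the 0.5 FPKM filter of the test only through Ad-PDK4, so the counts of this list are given as a description.

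**Figure D3:**
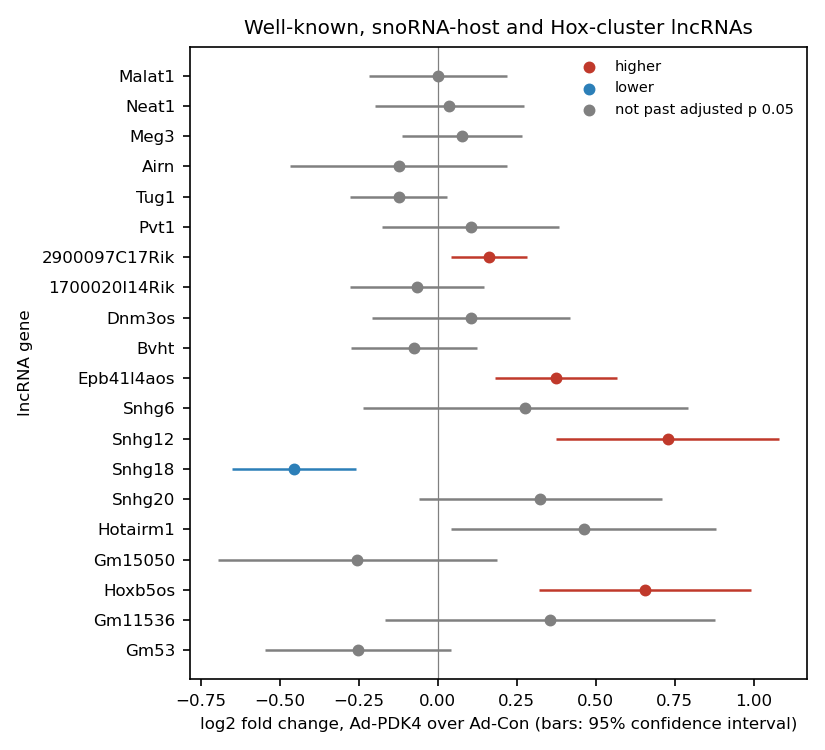
Log2 fold change of Ad-PDK4 over Ad-Con (points) with its 95% confidence interval (bars) for 20 well-known, snoRNA-host and Hox-cluster members. Red marks a rise and blue a fall at a limma adjusted p below 0.05, and grey marks genes that did not pass. Malat1 and Neat1 sit close to 0, Snhg12 and Hoxb5os to the right and Snhg18 to the left at -0.46.

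Imprinted lncRNAs are expressed from the chromosome of 1 parent and silence or accompany imprinted coding genes. Meg3, at the imprinted locus of chromosome 12, measured 9.73, 8.86 and 7.98 FPKM in Ad-Con and 9.36, 9.7 and 8.9 FPKM in Ad-PDK4 (log2 fold change 0.08 ± 0.082 (SE), limma adjusted p = 0.494). Airn, whose transcription silences Igf2r on the paternal chromosome, measured 2.31, 2.6 and 1.9 and 1.99, 2.38 and 1.84 FPKM (log2 fold change -0.12 ± 0.15 (SE), limma adjusted p = 0.538). Both members had overlapping groups. Igf2r, the mannose 6-phosphate and insulin-like growth factor 2 receptor gene that Airn overlaps, fell from 96.7, 98.6 and 96.5 FPKM to 60.2, 62.0 and 54.6 FPKM (log2 fold change -0.72 ± 0.057 (SE), limma adjusted p = 4.55e-05). The difference between the Airn and Igf2r changes was not tested. Of the imprinted list 5 genes were tested, with 0 higher and 1 lower, beside 21.8% higher and 20.8% lower of all genes tested.

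Small nucleolar RNAs (snoRNAs) guide the modification of ribosomal and spliceosomal RNA and are cut from introns of host genes. A snoRNA or small Cajal body RNA lies inside 5 members on the same strand: Epb41l4aos, Snhg6, Snhg12, Snhg18 and Snhg20. Of these, 2 rose, 1 fell and 2 did not pass the adjusted p. Epb41l4aos rose (log2 fold change 0.37 ± 0.083 (SE), limma adjusted p = 0.00842). Snhg12 rose from 2.58, 4.08 and 3.19 FPKM to 5.56, 5.07 and 5.62 FPKM (log2 fold change 0.73 ± 0.15 (SE), limma adjusted p = 0.00625). Snhg18 fell, from 24.7, 30.0 and 24.9 FPKM to 20.2, 18.1 and 19.6 FPKM (log2 fold change -0.46 ± 0.085 (SE), limma adjusted p = 0.00372). The groups of these 3 genes did not overlap. Snhg6 (0.28 on the log2 scale, limma adjusted p = 0.339) and Snhg20 (0.32, limma adjusted p = 0.154) spread more widely between libraries. On a list of 20 snoRNA hosts of any biotype, 17 genes were tested, with 6 higher and 2 lower, beside 21.8% higher and 20.8% lower of all genes tested, and a median log2 fold change of 0.23, beside -0.0031.

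MicroRNA genes lie inside 6 members on the same strand, or within 1000 bases of 8 members. Dnm3os, the host of miR-199a and miR-214, measured 5.22, 5.19 and 4.79 FPKM in Ad-Con and 5.82, 4.35 and 6.38 FPKM in Ad-PDK4 (log2 fold change 0.10 ± 0.14 (SE), limma adjusted p = 0.574). 6720427I07Rik, which contains Mirlet7d and lies beside Mirlet7a-1 and Mirlet7f-1, measured 1.97, 2.28 and 2.13 and 1.96, 1.94 and 2.36 FPKM (log2 fold change -0.03 ± 0.12 (SE), limma adjusted p = 0.868). E130102H24Rik, around Mir101a, measured 2.62, 3.47 and 3.91 and 4.97, 3.55 and 4.44 FPKM (limma adjusted p = 0.121). Neither Meg3 nor Snhg20 passed the test. Gm20632 was lower (log2 fold change -0.40, limma adjusted p = 0.0117), but 42.1% of its 50-base stretches also occur in 43 genes elsewhere, so its value is uncertain. Gm26532, above, was the one member called among the 8. Of a list of microRNA hosts of any biotype 9 genes were tested, with 3 higher and 1 lower, beside 21.8% higher and 20.8% lower of all genes tested.

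Hox clusters encode the transcription factors that give cells their position along the body axis, and lncRNAs lie between their genes. Members described here in HoxA were Hotairm1 and Gm15050. Hotairm1, named for its part in myeloid cells, measured 2.35, 2.61 and 1.78 and 3.54, 2.45 and 3.4 FPKM (log2 fold change 0.46 ± 0.18 (SE), limma adjusted p = 0.0751), and Gm15050, antisense to Hoxa3, 5.79, 4.54 and 7.99 and 4.98, 4.76 and 5.17 FPKM (limma adjusted p = 0.314). Of the 7 HoxA coding genes tested, 3 were lower and 0 higher, beside 22.6% lower and 23.8% higher of all coding genes tested. Their median log2 fold change was -0.12, and Hoxa3 was among the lower genes (log2 fold change -0.41, limma adjusted p = 0.0241). In HoxB, Hoxb5os rose from 2.19, 2.29 and 2.14 FPKM to 4.11, 2.79 and 3.84 FPKM (log2 fold change 0.66 ± 0.14 (SE), limma adjusted p = 0.00805), a difference that did not pass with limma-voom (adjusted p = 0.0585). Hoxb6, which it overlaps on the other strand, did not pass the test (log2 fold change 0.01 ± 0.13 (SE), limma adjusted p = 0.956). Gm11536 (0.36, limma adjusted p = 0.238) and Gm53 (-0.25, limma adjusted p = 0.148) did not pass the test. Of the 8 HoxB coding genes tested, 3 were higher and 0 lower, with a median of 0.04, and neither cluster was tested as a whole. Of the list of Hox and developmental lncRNAs 9 genes were tested, with 2 higher and 1 lower, beside 21.8% higher and 20.8% lower of all genes tested.

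The position of members relative to coding genes was compared next. By a rule that took the coding gene overlapping a member, or else the nearest coding gene start within 5000 bases, 91 members had a coding neighbour, and 75 pairs had both genes tested. The 27 members that lay near a coding gene on the other strand without overlapping it had a median log2 fold change of -0.42, with 22 of 27 below 0. On the adjusted p 1 of the 27 was higher and 6 were lower, the latter a share near the 20.8% of all genes tested. For the 26 of these pairs with a tested neighbour, the coding genes had a median of 0.02, with 12 of 26 below 0. On the adjusted p, 8 of these coding genes rose and 6 fell. The 56 members that overlapped a coding gene on the other strand had a median of 0.11, and the 55 members without a neighbour a median of 0.04. By biotype the median was 0.04 for lincRNA, -0.06 for antisense and -0.61 for bidirectional promoter lncRNA. Of the 11 bidirectional promoter lncRNAs 1 was higher and 5 were lower, beside 21.8% and 20.8% of all genes tested. These medians were not tested against each other.

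**Figure D4:**
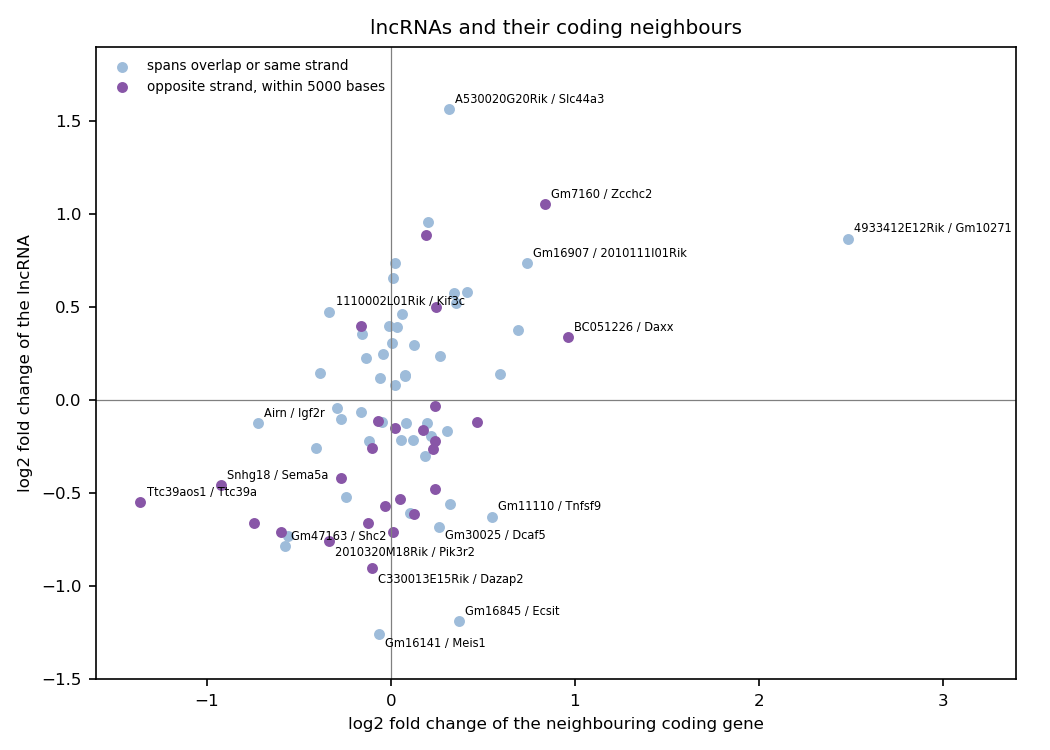
Log2 fold change of the neighbouring coding gene (horizontal) against that of the lncRNA (vertical) for 75 pairs, in purple for the 26 pairs on opposite strands within 5000 bases without overlap and in light blue for the rest. Most purple points lie below 0 on the vertical axis, spread to both sides of 0 on the horizontal axis, and Gm7160 with Zcchc2 and Snhg18 with Sema5a lie in opposite corners.

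Spearman's rho between a member's change and its neighbour's was 0.36 over the 75 pairs. It was 0.62 over the 26 pairs on opposite strands without overlap and 0.21 over the 46 pairs that overlapped on opposite strands. The points share libraries and some share a promoter region, genes are not replicates, and no p is given. In 13 pairs both genes passed the adjusted p, 4 with both higher, 5 with both lower and 4 in opposite directions. In 10 pairs only the member passed and in 22 only the neighbour. Whether 13 exceeds what the shares of members and neighbours alone would give was not tested. No pair had both genes called. Snhg18 and Sema5a, a semaphorin guidance gene whose start is 148 bases away, both fell, Sema5a from 9.38, 10.0 and 9.65 FPKM to 5.29, 5.11 and 4.78 FPKM (log2 fold change -0.92 ± 0.067 (SE), limma adjusted p = 2.86e-05). The stretch that runs from the base before the start of Sema5a into Snhg18 is shown because it separates both starts, with the first 50 transcribed bases of Snhg18 in capitals (chr15:32244613-32244809 of GRCm38.p6, minus strand). None of the 4 motifs occurs in it.
Snhg18: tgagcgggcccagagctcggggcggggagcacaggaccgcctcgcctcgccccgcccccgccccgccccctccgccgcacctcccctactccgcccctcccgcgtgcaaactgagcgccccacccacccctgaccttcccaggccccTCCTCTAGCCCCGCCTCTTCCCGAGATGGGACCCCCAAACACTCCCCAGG
Ttc39aos1 fell from 3.89, 4.45 and 3.66 FPKM to 2.37, 3.06 and 2.69 FPKM (log2 fold change -0.55 ± 0.12 (SE), limma adjusted p = 0.00746, and 0.0590 with limma-voom), and Ttc39a, 468 bases away, from 2.75, 3.03 and 2.91 FPKM to 1.01, 1.08 and 1.11 FPKM (log2 fold change -1.36 ± 0.11 (SE), limma adjusted p = 5.11e-05). Ttc39a was the only called gene among the tested neighbours. The RefSeq window of Ttc39aos1, chr4:109406208-109406507 on the minus strand, starts from a base 102 away from the start in the deposited table and holds 1 match to the AP-1 letters, in capitals, which begins 72 bases before the RefSeq start.
Ttc39aos1: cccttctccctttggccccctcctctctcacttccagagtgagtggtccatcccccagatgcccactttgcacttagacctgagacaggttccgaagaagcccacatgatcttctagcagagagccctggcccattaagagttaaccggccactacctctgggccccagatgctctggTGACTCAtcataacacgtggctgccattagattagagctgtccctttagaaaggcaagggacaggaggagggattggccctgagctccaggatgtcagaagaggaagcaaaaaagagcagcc
Gm47163, which starts 62 bases from the start of Shc2, an adaptor of receptor signalling, fell from 10.9, 10.1 and 10.7 FPKM to 5.97, 5.63 and 6.69 FPKM (log2 fold change -0.79 ± 0.078 (SE), limma adjusted p = 1.58e-04). Shc2 fell too, from 32.6 ± 1.32 to 21.9 ± 1.0 FPKM (SD, n = 3 each, log2 fold change -0.57). 2010320M18Rik fell beside Pik3r2, which encodes a regulatory subunit of phosphoinositide 3-kinase, with log2 fold changes of -0.76 ± 0.12 and -0.34 ± 0.087 (SE). Gm16907 rose with 2010111I01Rik, which it overlaps, with log2 fold changes of 0.74 and 0.74. BC051226, which starts 97 bases from the start of Daxx, a histone chaperone gene, did not pass the test (0.34 ± 0.18 (SE), limma adjusted p = 0.176), while Daxx rose from 13.7, 15.8 and 14.3 FPKM to 26.7, 29.0 and 29.9 FPKM. The other pairs in which both genes passed were Gm9869 with Uaca and Gm27003 with Gabpb1, both higher, and Gm38399 with Nav1, both lower.

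The 4 pairs that differed in direction all overlapped on opposite strands. Besides Gm16845 with Ecsit, Gm11110 fell from 5.52, 5.25 and 4.83 FPKM to 3.56, 3.2 and 3.25 FPKM (log2 fold change -0.63 ± 0.085 (SE), limma adjusted p = 7.68e-04), while Tnfsf9, the ligand of the costimulatory receptor 4-1BB, rose from 7.66, 7.24 and 5.56 FPKM to 10.9, 8.59 and 10.5 FPKM (log2 fold change 0.55 ± 0.14 (SE), limma adjusted p = 0.0155). Gm30025 fell from 6.68, 6.18 and 6.82 FPKM to 3.62, 4.16 and 4.42 FPKM (log2 fold change -0.68 ± 0.091 (SE), limma adjusted p = 7.09e-04), and Dcaf5 rose (log2 fold change 0.26 ± 0.074 (SE), limma adjusted p = 0.0238). 1110002L01Rik rose from 2.32, 2.26 and 2.35 FPKM to 3.41, 3.44 and 2.94 FPKM (log2 fold change 0.48 ± 0.10 (SE), limma adjusted p = 0.00527), and Kif3c, a kinesin motor gene, fell (log2 fold change -0.33 ± 0.079 (SE), limma adjusted p = 0.0111). In 1110002L01Rik 67.1% of the exonic bases lie in exons of other genes. For each of these 4 members the groups did not overlap.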

How the data were processed

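Per the labels, RNA of 6 libraries of mouse vascular smooth muscle cells was sequenced. The authors deposited FPKM for 54532 genes in 1 table, without pooling replicates. The submitters' notes name CASAVA 1.8, fastp, HISAT2 2.0.5, featureCounts 1.5.0-p3, DESeq2 1.20.0 and the build GRCm39, but the coordinates in the table are those of GRCm38: 54495 identifiers matched GENCODE release M21, 98.3% with the same coordinates, and all 146 members with the same length. A strand setting is not given in the sources used here, and the labels and the methods name different library kits. FPKM times gene length gave whole fragments for 100% of the values above 0 (tolerance 0.01), and the values were already scaled between libraries by the median of ratios. A fragment on a gene of 1 kb was worth between 0.0453 and 0.0571 FPKM, and counting error of low genes follows from these fragment numbers.

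Values of log2(FPKM + 0.1) entered limma 3.58.1 (R 4.3.3; moderation with trend and robust, no covariates) and Benjamini-Hochberg adjustment over the 13423 genes with a mean of at least 0.5 FPKM, so that fold changes of low genes are understated. The procedure was tested on simulated data. The members' share of the summed FPKM is given without a test, since the members were chosen by their FPKM. The members, gene lists, naming rule and alternatives were chosen with earlier results of these data known. Named were the 10 members with the highest level, the called members and their coding neighbours, members on the lists of structural, imprinted, snoRNA-host, microRNA-host, immune, growth-related and Hox lncRNAs, the genes nearest to the 2 FPKM limit, Pdk4 and the most abundant markers. Other names were chosen after their values were seen. Promoter windows and microRNAs came from RefSeq (GRCm38.p6). Alternatives changed the pseudocount (1 or 0.01), the level filter, the scaling, the moderation, the replicate block, the use of limma-voom on recovered fragments, the member limit (1 or 5 FPKM), and left out each library. Some results are not reported here.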

Additional observations from a re-analysis of the deposited data

How the results depend on the processing

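The calls of 5 higher and 5 lower members were the same genes under a pseudocount of 0.01, no filter beyond a mean above 0, a minimum mean of 2 FPKM, quantile normalization, rescaling after mtDNA-encoded genes were left out, empirical Bayes without trend or robust, and limma-voom on recovered fragments. Rescaling by the median of ratios gave the same calls too, but the values were already scaled this way, so it could not differ. A pseudocount of 1 left 3 higher and 2 lower members (Gm7160, Gm26532, Gm28875, Gm16141 and Gm16845 were lost), and 153 lower genes in all, against 360. Rescaling to TPM added G930009F23Rik and Gm9869 and moved the members' median to 0.01. With a minimum mean of 2 FPKM, 351 genes were higher and 206 lower in all, from fewer genes tested. With a limit of 1 FPKM there were 293 members, 16 called higher and 12 lower (50 and 47 on the adjusted p), and with a limit of 5 FPKM 46 members, 1 called higher and 0 lower (8 and 12). Of the 59 members that overlapped no other gene, 3 were called higher and 1 lower (8 and 12 on the adjusted p). When 1 library was left out, between 4 and 9 members were higher and between 5 and 6 lower; 9 were higher without Ad-Con replicate 2, which added Gm9869, G930009F23Rik, Gm36738 and Gm45620 to the higher and Gm38079 to the lower members. Gm7160 was lost without Ad-PDK4 replicate 1. Same-numbered libraries did not deviate together (correlations of -0.046, -0.031 and -0.0013). This check cannot tell whether they came from the same animal or culture, which the labels do not state. With the replicate block the calls were again 5 higher and 5 lower, with 28 and 31 on the adjusted p.

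Direction turned for genes near 0. Malat1 went to -0.0119 when mtDNA-encoded genes were left out and to -0.027 under quantile normalization, where Neat1 went to -0.018. When 1 library was left out, Malat1 ranged between -0.099 and 0.092, Neat1 between -0.069 and 0.089, Gm10076 between -0.12 and 0.56, 1700020I14Rik between -0.15 and 0.026, Dnm3os between -0.0087 and 0.26, Pvt1 between -0.0016 and 0.19 and Gm14167 between -1.05 and 0.28. Malat1 turned without Ad-Con replicate 3, Ad-PDK4 replicate 1 or 3, Neat1 without Ad-Con replicate 3 or Ad-PDK4 replicate 3, Gm14167 without Ad-PDK4 replicate 1, Gm10076 and 1700020I14Rik without Ad-PDK4 replicate 2, and Dnm3os and Pvt1 without Ad-PDK4 replicate 3. The cause was not tested in any of these. The difference in the members' share of FPKM stayed between 0.0186 and 0.0345 percentage points without 1 library, beside 0.0272 with all, and was 0.0129 on fragments. With 83 members under 100 fragments in some library, small differences were not detectable for many of them.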

Other observations

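lncRNA genes outside the rule also differed, and the names below were chosen after their values were seen. Among the 376 tested genes of the same 3 biotypes under 2 FPKM, 27 were called higher in Ad-PDK4 and 12 lower. Of all 13423 genes tested, 530 (3.95%) were called higher and 360 (2.68%) lower. Over the 522 tested genes of these biotypes, members included, 9.39% were called, beside 6.63% of all genes tested. Some called genes passed the 0.5 FPKM filter of the test only through the group in which they were high. Examples are Gm47242 and Gm45418, with Ad-Con means of 0.0400 and 0.0757 FPKM, and Gm26739, with an Ad-PDK4 mean of 0.151 FPKM. The counts of called genes are therefore given as a description. On the adjusted p alone, 50 of the 376 were higher, 29 were lower and 297 did not pass. The share that passed was thus smaller than the 42.7% of all genes tested. The median standard error of the 376 was 0.298, beside 0.0901 over all genes tested. A530040E14Rik, an antisense gene of chromosome 1, measured 0.0423, 0.123 and 0.0475 FPKM in Ad-Con and 1.66, 1.5 and 2.65 FPKM in Ad-PDK4 (log2 fold change 3.56 ± 0.35 (SE), limma adjusted p = 1.54e-04). Gm11131, an antisense gene of chromosome 17, measured 0.205, 0.182 and 0.159 and 1.95, 1.61 and 1.75 FPKM (log2 fold change 2.73 ± 0.23 (SE), limma adjusted p = 6.46e-05). Ptgs2os2, a lincRNA near the prostaglandin synthase gene Ptgs2, rose from 0.450, 0.457 and 0.316 FPKM to 1.1, 1.31 and 1.5 FPKM (log2 fold change 1.47 ± 0.23 (SE), limma adjusted p = 0.00160). Gm4544 fell from 2.67, 3.35 and 2.88 FPKM to 0.606, 1.09 and 0.632 FPKM (log2 fold change -1.84 ± 0.22 (SE), limma adjusted p = 3.82e-04). In each of these genes the groups did not overlap. A530040E14Rik, Gm11131 and Ptgs2os2 had Ad-Con means of 0.0708, 0.182 and 0.408 FPKM, so they passed the 0.5 FPKM filter of the test only through Ad-PDK4. Their Ad-Con libraries held 2, 5 and 2 fragments, 13, 10 and 9, and 16, 14 and 10. Their fold changes are given as a description.

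Some well-known lncRNAs carry the biotype processed transcript and so were not members. Zfas1, a snoRNA host gene, rose from 17.9, 23.1 and 21.4 FPKM to 45.3, 39.5 and 44.5 FPKM (log2 fold change 1.05 ± 0.10 (SE), limma adjusted p = 1.25e-04). Snhg15 and Gas5, also snoRNA hosts, rose with log2 fold changes of 0.57 ± 0.073 and 0.33 ± 0.10 (SE), whereas Snhg5 fell (-0.53 ± 0.088, limma adjusted p = 0.00209). Mir22hg, the host of miR-22, rose from 15.2, 16.6 and 15.0 FPKM to 22.7, 21.1 and 25.6 FPKM. Firre, a nuclear lncRNA of the X chromosome, fell (log2 fold change -0.58 ± 0.075 (SE), limma adjusted p = 6.27e-04). Rian, downstream of Meg3 in the same imprinted locus, fell (log2 fold change -0.39 ± 0.073 (SE), limma adjusted p = 0.00380), and the difference from Meg3 was not tested.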
